A study of Mus musculus with 4 samples.

Results

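The genes described here encode pore subunits of the pacemaker and potassium channels of the embryonic heart: Hcn4, Hcn2, Kcnh2, Kcnd2, Kcnd3, Kcnj2, Kcnj3 and Kcnj5. They were chosen by name, 8 of the 45706 genes in the count table, and none of them is a sodium channel gene. The samples were outflow tracts, the part of the embryonic heart that becomes the roots of the aorta and pulmonary artery, from C57BL/6 mice at embryonic day 12.5, and total RNA was sequenced. In Sox17eKO embryos a Cre recombinase under an Nfatc1 enhancer deleted Sox17 in the endothelium of the aortic root, so the deletion was directed at endothelium and not at the myocardium around it. The comparison group was wild-type (WT) embryos, and the labels do not say whether these carried the Cre or floxed alleles. Each library was a pool of the outflow tracts of 10 hearts, with 2 pools per genotype, and the stated purpose was to find targets of SOX17.

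HCN channels open when the membrane hyperpolarises and carry the inward pacemaker current that drives spontaneous beating. Potassium channels set the resting potential and end the action potential. Voltage-gated ones (Kcnd2, Kcnd3 and Kcnh2 here) repolarise the cell, and inward rectifiers (Kcnj2, Kcnj3 and Kcnj5) hold it near rest. In the embryonic heart these genes are best known from myocardium, and several are also expressed in neurons.

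Depth was 14306550 and 21883956 gene reads in Sox17eKO replicates 1 and 2, against 12880081 and 8113463 in WT replicates 1 and 2. Levels are given as CPM, a gene's reads relative to library size after TMM scaling, and differences as log2 fold changes of Sox17eKO over WT. Sox17, the targeted gene, stood at 2.76 and 2.82 CPM in Sox17eKO and at 6.05 and 6.83 CPM in WT, a difference of -1.19 log2 units (SE 0.23, edgeR adjusted p = 0.00574, or 0.0786 without WT replicate 2, the shallowest library). The 10 cardiomyocyte marker genes were all detected and summed to 19726 and 21643 CPM in Sox17eKO and to 19173 and 20323 CPM in WT, whereas 8 neuronal markers summed to between 24.6 and 35.3 CPM in every library. No cardiomyocyte, ventricular, sinus node, neuronal, neural crest or macrophage marker passed the test, where 5.35% of all genes tested did. Of these, 6 of 8 neuronal and 3 of 5 neural crest markers had enough reads to be tested. The marker calls named below come from the edgeR fit of all 4 libraries only, without any step for gene length. The 8 atrial markers summed to 3446 to 3536 CPM in Sox17eKO and 3909 to 4334 CPM in WT, where Bmp10 was higher and Nppa lower in Sox17eKO at an adjusted p under 0.05. The 6 ventricular markers summed to 5142 to 5532 CPM in Sox17eKO and 5984 to 6234 CPM in WT. Summed erythroid markers stood at 1343 and 1738 CPM in Sox17eKO and 2066 and 2472 CPM in WT (6 genes, Hbb-y lower), and epicardial ones at 288.2 and 251.0 CPM in Sox17eKO and 314.8 and 335.1 CPM in WT (7 genes, Upk3b and Lrrn4 lower). Smooth muscle markers summed to 2479 and 2446 CPM in Sox17eKO and 2712 and 2841 CPM in WT (6 genes, Cnn1 lower), and endothelial ones to 865.4 and 922.4 CPM in Sox17eKO and 928.4 and 960.3 CPM in WT (8 genes, Tie1 lower). The 6 mesenchymal markers overlapped between the genotypes, with Pdgfra higher in Sox17eKO. Whether these marker levels bear on the channel genes was not tested. In bulk tissue, fewer cells of a type and less RNA per cell cannot be told apart.

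None of the 7 channel genes with enough reads to be tested differed between Sox17eKO and WT at an adjusted p under 0.05 (edgeR quasi-likelihood test, all 16570 genes adjusted together). Of all genes tested 5.35% passed, 4.13% being higher and 1.22% lower in Sox17eKO, or 684 and 202 genes (769 and 111 with library size scaling, 78 and 71 with a trend on gene length removed). Kcnd2 was the 1 channel gene with an unadjusted edgeR p under 0.05, a mark that 20.9% of all genes reached. By limma-voom, where 4.81% of all genes passed, none of the 7 passed, with Kcnd2 again the 1 gene under an unadjusted p of 0.05. DESeq2 gave an adjusted p to 3 of them (Kcnh2, Kcnj2 and Kcnj5), of which none passed, against 7.93% of the genes that had one, and none of the 8 genes had an unadjusted DESeq2 p under 0.05. The eighth gene, Hcn2, had too few reads to be tested. CPM in both Sox17eKO libraries lay above both WT libraries for Kcnd2, Kcnd3, Kcnj2 and Kcnj5, 4 of the 7 tested, and below both for 0 of the 7. Hcn2, not tested, overlapped. Such separation is common with 2 pools a group, at 26.5% of all tested genes for higher and 26.2% for lower. The median log2 fold change of the 7 genes was 0.10, beside -0.010 over all genes tested.

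**Figure D1:**
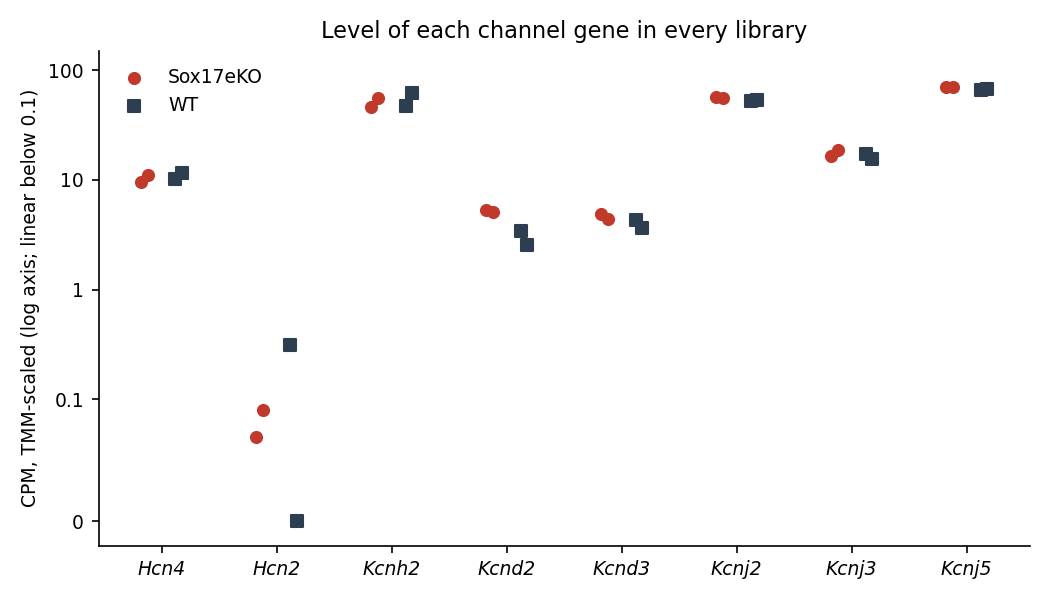
CPM (vertical, log axis, linear below 0.1) of the 8 channel genes (horizontal) in each Sox17eKO library (red circles) and each WT library (dark squares). The libraries of the 2 genotypes lie close together for every gene but Kcnd2, at 5.31 and 5.05 CPM in Sox17eKO and 3.41 and 2.53 CPM in WT, and Hcn2, which rests on 0 to 4 reads a library.

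Hcn4, the main pacemaker channel of the embryonic heart tube and the sinus node, was detected in every library. It had 138 and 242 reads in Sox17eKO and 131 and 92 in WT, or 9.52 and 11.0 CPM in Sox17eKO and 10.2 and 11.6 CPM in WT. The groups overlapped, and the replicates of each genotype differed by more than the means of the genotypes did. The estimated difference was -0.06 log2 units (SE 0.15, 95% interval -0.39 to 0.26, edgeR adjusted p = 0.858), so the interval holds changes from 0.764-fold to 1.20-fold. Hcn4 (ENSMUSG00000032338) lies on chromosome 9 of mm10 from 58823412 to 58863175 on the plus strand, and its 8 exon blocks overlap no other annotated gene.

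Hcn2, the HCN subunit of ventricular muscle and brain in adults, was near the limit of detection. It had 1 and 2 reads in the Sox17eKO libraries and 4 and 0 in the WT libraries, 3 of 36190506 gene reads in Sox17eKO and 4 of 20993544 in WT. The ratio of Sox17eKO to WT, taken over TMM-scaled library sizes, was 0.427, with an exact 95% counting interval of 0.0626 to 2.53 that covers counting error only, so no difference was detectable at this depth. The 0 reads of WT replicate 2 allow a level of up to 0.379 CPM, counting 3 reads as the limit. Hcn2 (ENSMUSG00000020331) lies on chromosome 10 from 79716634 to 79736108. Hcn3, another gene of the family, had 12 and 13 reads in Sox17eKO and 11 and 7 reads in WT. At the unlike depths of the libraries this was 0.828 and 0.591 CPM in Sox17eKO and 0.853 and 0.886 CPM in WT. The estimated difference of Hcn3 was -0.32 log2 units (SE 0.49, edgeR adjusted p = 0.769).

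Kcnh2 encodes the pore subunit of the rapid delayed rectifier, the current that ends the plateau of the action potential. Its level was 46.3 and 55.5 CPM in Sox17eKO and 46.8 and 61.4 CPM in WT, from 671 and 1220 reads in Sox17eKO and 604 and 485 in WT. As for Hcn4, the groups overlapped and replicates differed by more than the genotype means. The estimated difference was -0.07 log2 units (SE 0.13, 95% interval -0.35 to 0.21, edgeR adjusted p = 0.813). Its sign was not fixed: leaving out WT replicate 2 gave 0.12 and leaving out Sox17eKO replicate 1 gave 0.05, as that of Hcn4 was 0.021 and 0.028. Kcnh2 (ENSMUSG00000038319) occupies chromosome 5 from 24319589 to 24351604 (minus strand), with 16 exon blocks, and the antisense gene Gm15589 lies within its span without sharing exonic bases.

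Kcnd2 and Kcnd3 encode Kv4.2 and Kv4.3, the pore subunits of the fast transient outward current that gives the early notch of repolarisation. Kcnd2 was the channel gene that came nearest to the threshold. It stood at 5.31 and 5.05 CPM in Sox17eKO, from 77 and 111 reads, and at 3.41 and 2.53 CPM in WT, from 44 and 20 reads. Both Sox17eKO libraries lay above both WT libraries, with means of 5.18 ± 0.185 CPM in Sox17eKO and 2.97 ± 0.624 CPM in WT (SD, n = 2 each). Counting error alone gives 95% intervals of 4.18 to 6.62 and 4.15 to 6.07 CPM for the Sox17eKO libraries and of 2.48 to 4.57 and 1.54 to 3.90 CPM for the WT libraries. The estimated difference was 0.76 log2 units (SE 0.25), a fitted ratio of 1.69 with an unadjusted 95% interval of 1.18 to 2.42 (edgeR unadjusted p = 0.00628, adjusted p = 0.0782). With 1 library left out, the estimate ranged from 0.59 without WT replicate 2 to 1.03 without WT replicate 1. Its positive sign in each such fit follows from the separation of the groups and is no further support. Kcnd2 (ENSMUSG00000060882) spans 514303 bases of chromosome 6, from 21215503 to 21729805 on the plus strand, but its 6 exon blocks cover only 5152 bases. The Kcnd2 promoter is shown because it belongs to the gene with the largest difference of the 7. It is given as the 250 bases before the RefSeq start (GRCm38.p6, chr6:21215096-21215345, plus strand), which lies 157 bases upstream of the GENCODE start. It was 68.8% G or C with 22 CG dinucleotides and held neither ATTGT nor ACAAT, the strands of the core letters bound by SOX factors, which capitals would mark.
Kcnd2: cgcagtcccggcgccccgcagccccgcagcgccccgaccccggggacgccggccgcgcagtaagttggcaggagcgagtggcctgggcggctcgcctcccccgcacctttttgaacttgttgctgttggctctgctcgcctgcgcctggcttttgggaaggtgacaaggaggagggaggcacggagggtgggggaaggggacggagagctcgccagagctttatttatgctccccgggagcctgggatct

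Kcnd3 had 4.90 and 4.41 CPM in Sox17eKO, from 71 and 97 reads, and 4.27 and 3.67 CPM in WT, from 55 and 29 reads. Both Sox17eKO values were above both WT values, but the gap between the groups was smaller than the difference between replicates. The estimated difference was 0.21 log2 units (SE 0.23, 95% interval -0.28 to 0.70, edgeR adjusted p = 0.670). Kcnd3 (ENSMUSG00000040896) lies on chromosome 3 from 105452330 to 105674002 and shares 165 exonic bases with the opposite-strand gene Kcnd3os, which had 2 and 7 reads in Sox17eKO and 2 and 1 in WT. In CPM, Kcnd2 lay above Kcnd3 in both Sox17eKO libraries and below it in both WT libraries. The union of exons was 5152 bases for Kcnd2 and 9587 bases for Kcnd3, which has 5 annotated transcripts. Per kilobase of these lengths, the level of Kcnd2 was 2.02 and 2.13 times that of Kcnd3 in Sox17eKO and 1.49 and 1.28 times in WT. These ratios did not overlap, but with 2 libraries a group the exact two-sided permutation test cannot go below the value it gave, p = 0.333 (adjusted p = 1 over the 3 ratios computed). Kcnip2, the KChIP2 subunit that assembles with Kv4 channels in ventricular muscle of adult rodents, had 11 and 6 reads in Sox17eKO and 6 and 2 in WT, too few to be tested.

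Kcnj2 encodes Kir2.1, the inward rectifier that sets the resting potential of working myocardium. It had 57.0 and 55.4 CPM in Sox17eKO and 52.5 and 53.0 CPM in WT, from 827 and 1217 reads in Sox17eKO and 677 and 419 in WT. Both Sox17eKO libraries were higher, by an estimated 0.09 log2 units (SE 0.08, 95% interval -0.08 to 0.26, edgeR adjusted p = 0.577). The data therefore leave room for changes between 0.944-fold and 1.20-fold. Kcnj2 (ENSMUSG00000041695) lies on chromosome 11 from 111066164 to 111076821 and has 2 exon blocks.

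Kcnj3 and Kcnj5 encode GIRK1 and GIRK4, which assemble into the channel of atrial and nodal muscle that the vagus nerve opens through muscarinic receptors and G protein βγ subunits. Kcnj5 was the more abundant of the pair, with 70.8 CPM in each Sox17eKO library and 65.4 and 67.0 CPM in the WT libraries. Both Sox17eKO values were above both WT values, and the replicates of Sox17eKO differed by less than 0.1 CPM. The estimated difference was 0.10 log2 units (SE 0.08, 95% interval -0.07 to 0.26, edgeR adjusted p = 0.518). Kcnj3 had 16.5 and 18.6 CPM in Sox17eKO and 17.2 and 15.4 CPM in WT, values that overlapped. The estimated difference was 0.10 log2 units (SE 0.13, 95% interval -0.17 to 0.37, edgeR adjusted p = 0.712). Per kilobase of exon, Kcnj3 reached 0.209 and 0.236 of the level of Kcnj5 in Sox17eKO and 0.237 and 0.207 in WT, so the proportion of the partner transcripts overlapped between the genotypes. Kcnj3 (ENSMUSG00000026824) lies on chromosome 2 from 55435970 to 55598145 and shares 1621 exonic bases with the opposite-strand gene Gm26794, which had 8 and 10 reads in Sox17eKO and 6 and 2 in WT. Kcnj5 (ENSMUSG00000032034) occupies chromosome 9 from 32314707 to 32344350 (minus strand) and overlaps no other annotated gene.

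The promoters of this pair are shown because their products form 1 channel while their RNA levels differ within each library. They are the 250 bases before the RefSeq starts in GRCm38.p6, chr2:55435720-55435969 on the plus strand for Kcnj3 and chr9:32344345-32344594 on the minus strand for Kcnj5. Capitals mark ATTGT or ACAAT, and CCAAT or ATTGG, the letters of the CCAAT box on either strand. Searches were made on both strands, and ATTGT and ATTGG have the letters ATTG in common.
Kcnj3: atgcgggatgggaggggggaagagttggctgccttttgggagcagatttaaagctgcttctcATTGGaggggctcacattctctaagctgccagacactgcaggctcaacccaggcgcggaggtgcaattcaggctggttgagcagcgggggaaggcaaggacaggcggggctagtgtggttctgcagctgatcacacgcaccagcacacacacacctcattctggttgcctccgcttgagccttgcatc
Kcnj5: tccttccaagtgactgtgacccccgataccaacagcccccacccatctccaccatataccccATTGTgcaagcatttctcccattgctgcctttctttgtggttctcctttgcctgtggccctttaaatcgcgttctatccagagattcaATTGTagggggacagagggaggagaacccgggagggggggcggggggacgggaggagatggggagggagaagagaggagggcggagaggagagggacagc
Kcnj5 held ATTGT at 2 places, starting 188 and 100 bases before its start, and Kcnj3 held 1 match to the CCAAT box. ATTGT or ACAAT was present in 1 of the 8 channel promoters and in 27.7% of 32851 RefSeq promoters of the same length. CCAAT or ATTGG was present in 2 of the 8, those of Kcnj2 and Kcnj3, and in 33.8% of all promoters. TATAAA or TTTATA was in 0 of the 8 and in 12.4% of all. The 8 windows were 58.0% to 73.6% G or C, each above the median of 52.4% over all promoters. A match is a description of letters and not a binding site. The RefSeq start used for Kcnh2 lies 22013 bases from the GENCODE start, so its window is inside that gene.

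**Figure D2:**
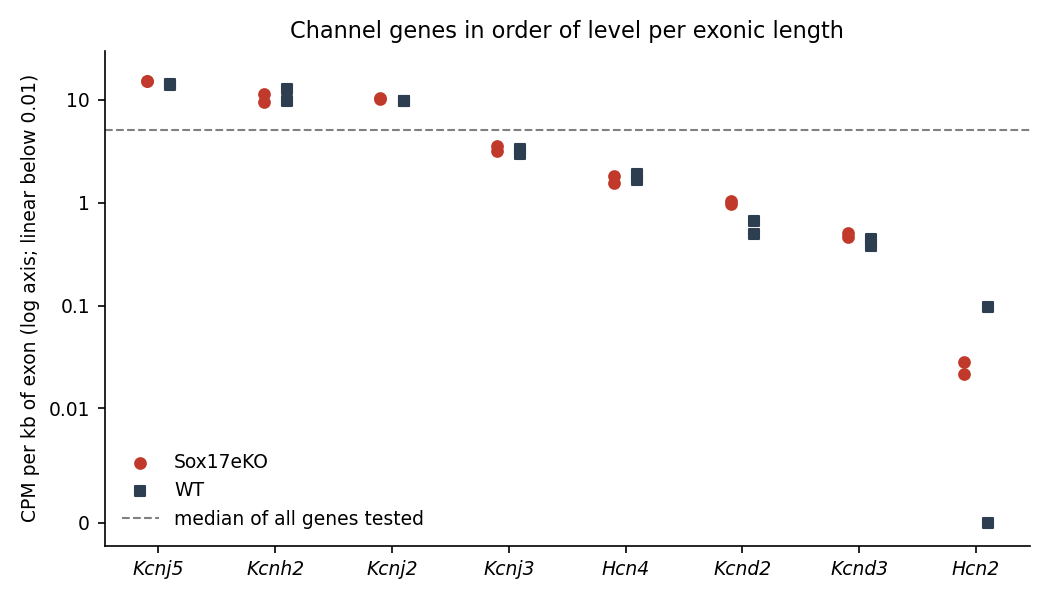
Level per kilobase of exon in CPM (vertical, log axis, linear below 0.01) for the 8 channel genes in order of their mean (horizontal), with Sox17eKO libraries as red circles, WT libraries as dark squares and the median of all tested genes, 5.13, as a dashed line. Kcnj5, Kcnh2 and Kcnj2 lie above the line and the other genes below it.

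Ordered by level per kilobase of exon, which allows genes to be compared, Kcnj5 came first at 14.6 CPM per kb over the 4 libraries. Kcnh2 followed at 10.8 and Kcnj2 at 10.0 CPM per kb, and the ranges of these neighbours overlapped, from 9.55 to 12.7 for Kcnh2 and from 9.64 to 10.5 for Kcnj2. Kcnj3 stood at 3.25 CPM per kb and Hcn4 at 1.73 CPM per kb. Kcnd2 at 0.791 and Kcnd3 at 0.450 CPM per kb overlapped with each other, and Hcn2 was last at 0.0368. All other neighbours in this order had ranges that did not overlap. The median tested gene had 5.13 CPM per kb, so the inward rectifiers Kcnj5 and Kcnj2 and the delayed rectifier Kcnh2 were above it. The inward rectifier Kcnj3 and the pacemaker and transient outward channel genes were below it. Lengths were the union of annotated exons, which overstates the length of a gene with several transcripts.

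**Figure D3:**
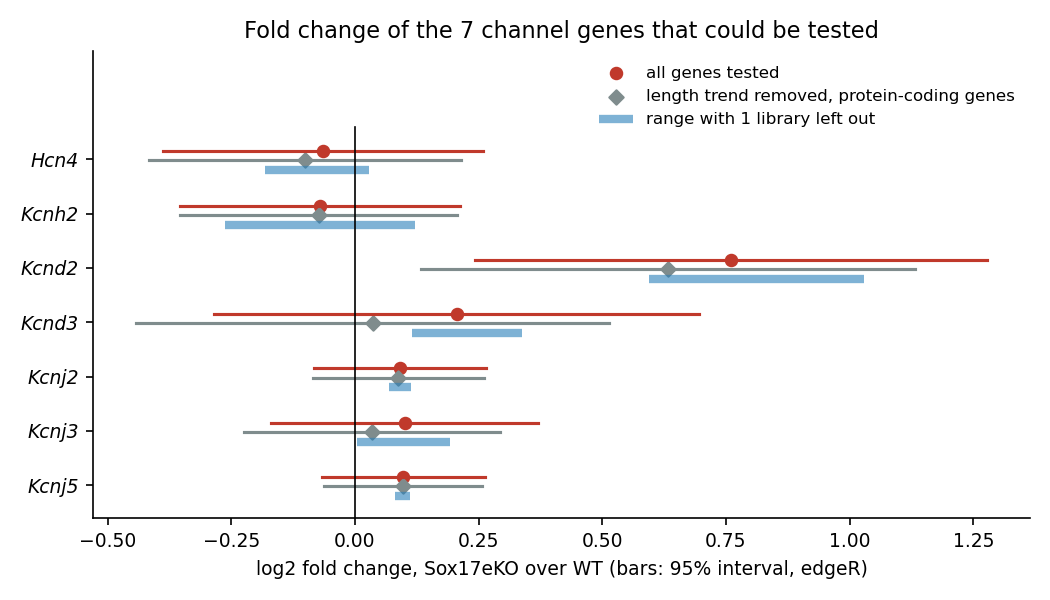
Log2 fold change of Sox17eKO over WT (horizontal) for the 7 channel genes tested (vertical), with 95% intervals from edgeR over all genes tested (red) and after removal of a length trend among protein-coding genes (grey), and the range of values with 1 library left out (blue). Kcnd2 stands farthest from 0, at 0.76 and at 0.63 after the trend was removed, and the intervals of the other 6 genes include 0.

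Gene length ran with the fold changes across the transcriptome. Among protein-coding genes, 12.2% of those in the longest quartile of exonic length were higher in Sox17eKO at an adjusted p under 0.05, and 0.209% in the shortest. Reads that HTSeq assigned to no annotated gene made up 34.1% and 29.5% of uniquely placed reads in Sox17eKO and 22.2% and 20.4% in WT. The strand setting and annotation release behind this class are not given. Kcnd3 was the channel gene in the longest quartile of exonic length, and Kcnd2, Kcnd3 and Kcnj3 were in the longest quartile of genomic span. With a smooth trend on exonic length and span removed from each library, the log2 fold change of Kcnd2 was 0.63 (edgeR adjusted p = 0.232), that of Kcnd3 0.04 and that of Kcnj3 0.03. The values of Kcnj2 (0.09), Kcnj5 (0.10), Kcnh2 (-0.07) and Hcn4 (-0.10) stayed close to those without the step. None of the 7 passed, where 1.12% of all protein-coding genes did.

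Among 39 other pacemaker and potassium channel genes, 29 were tested, 2 rose and none fell, beside 4.13% higher and 1.22% lower of all genes tested, with a median log2 fold change of 0.04. Calls in 2 of 29 genes are near that background. Kcna4, which encodes the Kv1.4 subunit of the slow transient outward current, rose to 19.6 and 18.7 CPM in Sox17eKO, against 12.1 and 11.8 CPM in WT. The estimate was 0.68 log2 units (SE 0.13, edgeR adjusted p = 0.00456), and 0.69 once the length trend was taken out (edgeR adjusted p = 0.00709). Kcna4 no longer passed when WT replicate 2 was left out (edgeR adjusted p = 0.0597) and passed in the other 3 fits that left out 1 library. Kcnh7, a relative of Kcnh2 best known from neurons, rose to 20.2 and 21.01 CPM in Sox17eKO, against 14.6 and 14.3 CPM in WT, an estimated 0.51 log2 units (SE 0.12, edgeR adjusted p = 0.0204). That call ended in each of the 4 fits with 1 library left out (edgeR adjusted p from 0.0588 to 0.128) and once the length trend was taken out (0.21 log2 units, edgeR adjusted p = 0.469). Fits with 1 library left out have 1 pool in a genotype. Calls over all genes tested also became fewer without WT replicate 2 or either Sox17eKO replicate. The most abundant gene of the list per kilobase was Kcna5, which encodes Kv1.5, at 16.1 and 14.0 CPM in Sox17eKO and 14.3 and 15.9 CPM in WT.

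Of 24 auxiliary subunits and partners of these channels, 18 were tested, 1 rose and 1 fell, beside the same 4.13% and 1.22% of all genes, with a median log2 fold change of 0.13. Akap9, an anchoring protein that holds protein kinase A at ion channels, rose to 294.9 and 282.2 CPM in Sox17eKO, against 210.9 and 187.6 CPM in WT. The estimate was 0.53 log2 units (SE 0.08, edgeR adjusted p = 0.00111). The call held with any 1 library left out, but not once the length trend was taken out (0.23 log2 units, edgeR adjusted p = 0.115). Cav3, the muscle caveolin and the most abundant of the list per kilobase, fell to 45.1 and 43.5 CPM in Sox17eKO, against 55.0 and 57.3 CPM in WT (-0.34 log2 units, SE 0.09, edgeR adjusted p = 0.0267). The Cav3 call ended in each of the 4 fits with 1 library left out (edgeR adjusted p from 0.0564 to 0.181) and once the length trend was taken out (-0.20, edgeR adjusted p = 0.278). As for the list above, fits with 1 library left out have 1 pool in a genotype, and most of them held fewer calls over all genes tested.

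Of 16 genes of the muscarinic and beta-adrenergic control of channels, 2 rose and none fell, beside the same 4.13% and 1.22% of all genes, with a median log2 fold change of 0.08. Chrm2, the M2 muscarinic receptor that opens the channel formed by the Kcnj3 and Kcnj5 products, rose to 28.3 and 28.6 CPM in Sox17eKO, against 20.6 and 18.3 CPM in WT. The estimate was 0.54 log2 units (SE 0.11, edgeR adjusted p = 0.0103) and remained past the threshold with the length trend removed (0.46, edgeR adjusted p = 0.0384). Chrm2 no longer passed when WT replicate 2 was left out (edgeR adjusted p = 0.121) and passed in the other 3 fits that left out 1 library. Pde4d, a phosphodiesterase that breaks down cyclic AMP, the ligand of HCN channels, rose to 42.2 and 44.1 CPM in Sox17eKO, against 34.4 and 33.4 CPM in WT (0.35 log2 units, SE 0.09, edgeR adjusted p = 0.0385). That call ended in each of the 4 fits with 1 library left out (edgeR adjusted p from 0.0835 to 0.214), and the log2 fold change was 0.05 with the length trend removed. With that trend removed the calls of the list were Chrm2, higher, and Gnas, lower, the stimulatory G protein subunit, which is named after its values were seen. Gnas had 567 and 627 CPM in Sox17eKO and 648 and 698 CPM in WT (log2 fold change -0.17, edgeR adjusted p = 0.242, and -0.33 with the trend removed, edgeR adjusted p = 0.0216). Here too, calls over all genes tested became fewer without WT replicate 2 or either Sox17eKO replicate, in fits that have 1 pool in a genotype. Gnai2, an inhibitory G protein subunit and the most abundant of the list per kilobase, had 231.1 and 247.4 CPM in Sox17eKO and 266.7 and 297.8 CPM in WT and did not pass (log2 fold change -0.24, edgeR adjusted p = 0.0948).

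None of 8 sodium channel beta subunits and partners was called by DESeq2. It gave an adjusted p to only 5198 genes, of which 7.93% passed, and a gene without one counted as not called. By edgeR or limma-voom none of the 8 passed either, beside 5.35% and 4.81% of all genes tested. Calls in 0 of 8 genes are near that background. An unadjusted edgeR p under 0.05 was reached by 20.9% of all genes and by 1 of the 8. That was Gpd1l, a regulator of sodium channel trafficking, at 32.3 and 34.0 CPM in Sox17eKO and 37.0 and 41.4 CPM in WT (log2 fold change -0.23, edgeR adjusted p = 0.185). Scn2b, a beta subunit, had 8.83 and 9.55 CPM in Sox17eKO and 8.76 and 7.84 CPM in WT. Beside the same shares of all genes, none of 12 pacemaker and conduction transcription factors passed by edgeR, limma-voom or, with the same limit, DESeq2. Of these, 1 had an unadjusted edgeR p under 0.05. That was Id2, a repressor of basic helix-loop-helix factors, at 157.5 and 150.7 CPM in Sox17eKO and 162.3 and 186.9 CPM in WT (log2 fold change -0.18, edgeR adjusted p = 0.221). Nkx2-5, the core cardiac factor, had 40.6 and 48.2 CPM in Sox17eKO and 46.3 and 59.1 CPM in WT (log2 fold change -0.23, edgeR adjusted p = 0.275). Hopx, the most abundant of these per kilobase, overlapped between the genotypes at 121.8 and 136.7 CPM in Sox17eKO and 138.2 and 131.6 CPM in WT.

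**Figure D4:**
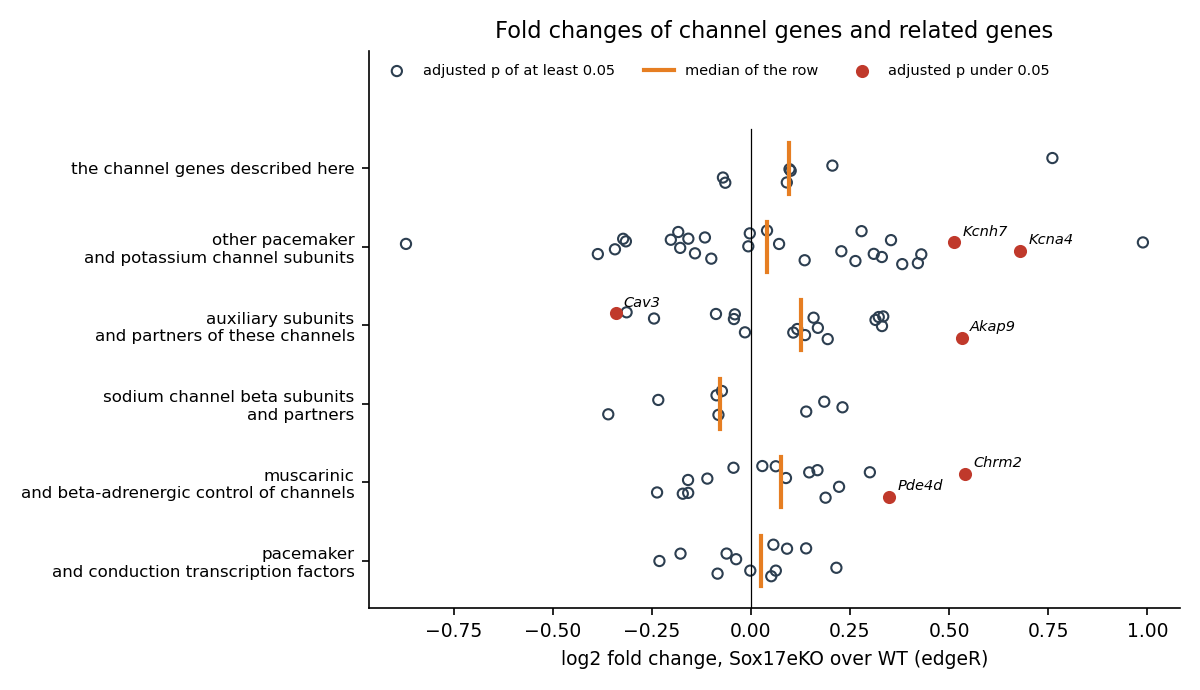
Log2 fold change of Sox17eKO over WT (horizontal) for each tested gene of the channel set and of 5 related gene lists (rows), with genes at an adjusted p under 0.05 filled in red and named, other genes as open circles, and the median of each row as an orange bar. All row medians lie between -0.08 and 0.13, and 6 related genes are past the threshold.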

How the data were processed

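RNA was measured in 4 pooled outflow tract libraries, prepared with a strand-specific Illumina protocol per the labels' protocols. The deposited table holds unnormalized read counts for each Ensembl gene. Tools named in the submitters' processing notes are TopHat2 and HTSeq, with build mm10. Tool versions, annotation release and HTSeq's strand setting are not given in the sources used here. Reads of genes that share exonic bases with an opposite-strand gene may not have been told apart. Groups and replicate numbers came from sample titles. Replicates were not duplicates of 1 library (a chi-square test of their counts gave 6.70 per degree of freedom in Sox17eKO and 4.95 in WT). The labels give each library as a separate pool of hearts.

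Gene symbols, positions and exonic lengths came from GENCODE M21 (GRCm38), which matched 45143 of 45706 genes. It may not be the release the authors counted on. Promoter sequences came from RefSeq (GRCm38.p6), where all 8 genes matched by symbol. Library sizes and tests leave out the 5 summary rows of HTSeq. Of reads placed at 1 position, 3.38% and 5.39% were ambiguous in Sox17eKO and 5.05% and 6.22% in WT. Counting intervals cover counting error only, and the reads carry no molecular identifiers.

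Genes were tested with the quasi-likelihood test of edgeR 4.0.16 (R 4.3.3, robust, TMM factors, genotype as the only term) on 16570 genes passing filterByExpr, with Benjamini-Hochberg adjustment over all of them and a threshold of 0.05. Standard errors (SE) were obtained from the log2 fold change and the F statistic. Intervals use the moderated degrees of freedom (2 residual degrees before moderation). The scripts were tested on simulated counts. Alternatives were DESeq2 1.42.0, limma-voom (limma 3.58.1), other scalings and filters, no robust option, a block for replicate number, leaving out each library, protein-coding genes only, and taking out each library's smooth trend on exonic length and span (mgcv 1.9.3).

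The channel genes and lists were chosen with earlier results of these data known. Named genes were the 8 channel genes, Sox17, and in each list the called genes, otherwise the 2 with the smallest p, and the gene with the highest CPM per kb. Marker genes were named where called, after their values were seen. With 4 libraries, no gene was named for likeness of pattern. Values of some single genes of the family and lists are not reported here; the list counts include every listed gene.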

Additional observations from a re-analysis of the deposited data

How the results depend on the processing

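Of 108 refits of single channel genes under the alternatives, 103 kept their direction and side of the threshold, 4 changed sign without a call and 1 passed. The sign changes were those of Hcn4 (0.021 without WT replicate 2, 0.028 without Sox17eKO replicate 1, range -0.18 to 0.028) and Kcnh2 (0.12 and 0.048 in the same fits, range -0.26 to 0.12). Depth left Hcn2 untested at 0 to 4 reads a library, and Kcnd2 had 20 reads in WT replicate 2, the shallowest library. The cause of the changes was not tested.

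Replicate numbers were not treated as pairs in the main fit. Deviations of same-numbered libraries from their group means correlated at -0.03 over all genes tested. Whether some of the genes shared an effect within a replicate number was not tested. With the replicate block 1107 genes were called higher and 577 lower, against 684 and 202 without it. Kcnd2 then passed (log2 fold change 0.79, edgeR adjusted p = 0.0446), the 1 channel gene called, and the muscarinic and beta-adrenergic list held 5 calls, Gnai2 among them (-0.24, edgeR adjusted p = 0.0274; -0.21 and 0.0409 with the length trend also removed). With the length trend removed 78 genes were called higher and 71 lower, and with that step and the block together 186 higher and 267 lower; the other potassium channel list then held 1 call in each, and the auxiliary list 0 and, with the block, 1.

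DESeq2 called 294 genes higher and 118 lower, and 0, 1 and 0 genes of the potassium channel, auxiliary and muscarinic lists, where it gave many genes no adjusted p. Calls lower in Sox17eKO numbered 111 with library size scaling, 387 without a filter and 105 without the robust option. Without a filter the auxiliary list held 4 calls, and without the robust option the muscarinic list held 1. With 1 library left out, calls higher ranged from 90 to 641 and calls lower from 13 to 329, both lowest without WT replicate 2, calls of channel genes stayed at 0, and the potassium channel, auxiliary and muscarinic lists held 0 to 1, 1 to 2 and 0 to 2.

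Among related genes not called, signs turned for Kcna5 (0.023 with library size scaling, 0.0015 among protein-coding genes, 0.071 with the length trend removed and 0.078 with the block added, and -0.10 to 0.099 with 1 library left out) and Hopx (0.048 with the length trend removed, 0.043 with the block added, and -0.15 to 0.018 with 1 library left out).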
